A study of Mus musculus with 4 samples.

Results

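RAB proteins are small GTPases of the RAS superfamily that give each membrane compartment its identity and direct vesicles from one compartment to the next. They switch on when an exchange factor loads GTP and off when a GTPase-activating protein speeds hydrolysis, and while on they recruit effectors such as tethers and motors. Some act between the endoplasmic reticulum (ER) and the Golgi, others on endosomes, and others on secretory granules, where Rab27a docks the lytic granules by which natural killer (NK) cells and cytotoxic T cells kill. XBP1s, the active transcription factor made from spliced Xbp1 mRNA during the unfolded protein response, is known for driving genes of the secretory pathway.

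The RAB GTPase genes are all protein-coding genes whose symbol is Rab followed by a number and at most a letter and a further digit. Of the 4890 peaks in the deposited list of XBP1s binding, 14 were assigned to such a gene, 1 peak for each of 14 genes, out of 59 RAB genes in the RefSeq gene table. The chromatin came from mouse splenic NK cells treated with IL-15, a cytokine that maintains these cells, at 50 ng/ml for 1 h. The series has 2 libraries of XBP1s immunoprecipitation (XBP1s IP) and 2 of input chromatin. The mice are given as Il15TgXbp1f/f, that is carrying an Il15 transgene and floxed Xbp1 alleles, with C57BL/6 as strain, and this holds for both groups. The text used here names no Cre, and neither the promoter of the transgene nor the age, sex or pooling of the mice is given in it.

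All values come from 1 combined list in which no column belongs to a single library. There is therefore no replicate error, the depth is unknown, XBP1s IP cannot be compared with input peak by peak, and no test was made. The score column is 0 for all peaks, so the only size of a peak is the width of its interval, which is not a signal strength. In a bulk preparation, binding in few cells and weak binding in all cells cannot be told apart. Of markers of the cells that a spleen preparation could hold, a peak within 5000 bp of the transcription start site (TSS) was listed for 5 of 10 NK genes, 0 of 5 B cell genes, 0 of 5 erythroid genes, 1 of 5 T cell genes (Cd3d, a 217 bp peak centred 4725 bp downstream) and 1 of 5 myeloid genes (Cd68, 373 bp). The NK genes with one were Il2rb (853 bp), Prf1 (693 bp), Gzmb (503 bp), Gzma (339 bp) and Klrd1 (190 bp), and those without were Ncr1, Klrb1c, Klrk1, Eomes and Tbx21. Over all 21900 protein-coding genes the share with such a peak was 15.9%, and lists of 5 genes are too short to set 0 or 1 against it. These marker counts describe binding and not expression, so they do not check which cells were present.

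Promoter sequence was read from RefSeq windows of build GRCm38.p6, the assembly of mm10, each running from 250 bases before to 50 bases after a start site. Windows were found for 48 of the 59 RAB genes and for 12 of the 14 with a peak. A window is not the DNA under the peak, since the intervals covered all 300 bases in 7 of the 12 and fewer in Rab11b (250), Rab2b (237), Rab4b (155), Rab3a (118) and Rab11a (118). The upstream 250 bases of 6 bound genes follow, 5′ to 3′ along the gene. Rab5a and Rab33b are shown because they are the bound RAB genes whose windows hold ACGTG, the core of XBP1 sites. The other 4 were picked after their values were seen, Rab1a and Rab8a for the widest peaks with a window, Rab6a as a further Golgi gene and Rab11a for the narrowest peak. Capitals mark TGACGTCA (the cyclic AMP response element), ACGTG (the core just named), CCACG (a piece of ER stress elements), CCAAT (the NF-Y box) and CCGGAAG (the core of ETS factor sites), each on either strand.
Rab1a, chr11:20201162-20201411, plus strand: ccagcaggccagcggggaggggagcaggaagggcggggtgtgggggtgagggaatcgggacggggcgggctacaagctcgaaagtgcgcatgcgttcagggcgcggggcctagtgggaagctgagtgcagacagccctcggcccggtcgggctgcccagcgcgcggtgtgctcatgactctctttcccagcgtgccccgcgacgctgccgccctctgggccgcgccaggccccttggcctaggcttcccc
Rab8a, chr8:72160950-72161199, plus strand: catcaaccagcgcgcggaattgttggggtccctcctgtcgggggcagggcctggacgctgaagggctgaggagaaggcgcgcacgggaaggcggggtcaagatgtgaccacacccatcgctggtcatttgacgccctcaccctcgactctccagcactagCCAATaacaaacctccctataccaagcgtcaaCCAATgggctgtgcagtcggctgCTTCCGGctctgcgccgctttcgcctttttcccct
Rab5a, chr17:53478984-53479233, plus strand: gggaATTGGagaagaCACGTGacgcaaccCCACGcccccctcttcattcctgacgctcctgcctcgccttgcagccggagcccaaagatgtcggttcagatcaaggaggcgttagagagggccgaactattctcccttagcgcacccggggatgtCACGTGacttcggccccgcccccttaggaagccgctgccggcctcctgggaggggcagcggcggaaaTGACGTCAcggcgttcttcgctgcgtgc
Rab33b, chr3:51483716-51483965, plus strand: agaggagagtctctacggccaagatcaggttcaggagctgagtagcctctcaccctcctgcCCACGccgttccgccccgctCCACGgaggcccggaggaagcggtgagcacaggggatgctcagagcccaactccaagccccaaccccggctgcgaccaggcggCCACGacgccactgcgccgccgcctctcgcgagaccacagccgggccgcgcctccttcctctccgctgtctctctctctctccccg
Rab6a, chr7:100607336-100607585, plus strand: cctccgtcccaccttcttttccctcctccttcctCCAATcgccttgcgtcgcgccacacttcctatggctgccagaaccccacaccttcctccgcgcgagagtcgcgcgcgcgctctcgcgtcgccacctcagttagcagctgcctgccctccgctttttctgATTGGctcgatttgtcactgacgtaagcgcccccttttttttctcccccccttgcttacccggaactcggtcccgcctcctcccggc
Rab11a, chr9:64737757-64738006, minus strand: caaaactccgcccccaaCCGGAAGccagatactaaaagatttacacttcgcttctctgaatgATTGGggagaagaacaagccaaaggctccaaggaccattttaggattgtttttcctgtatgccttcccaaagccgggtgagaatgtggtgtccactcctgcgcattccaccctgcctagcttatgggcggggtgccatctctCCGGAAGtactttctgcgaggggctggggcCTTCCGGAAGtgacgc

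These promoters differ in the letters searched. In the positions that follow, the TSS is the zero point, a minus sign means upstream, and each position is that of the first base of the match. The Rab1a sequence has no capitals. It does hold GGGCGG, the GC box, which was searched but is not capitalised, at -220, at -188 and, on the other strand, at -43. Rab5a holds the palindrome TGACGTCA at -28 and CACGTG, the E-box, at -235 and -95. Rab33b has 3 copies of CCACG, at -189, -169 and -86, while its ACGTG, at 45, lies past the start site and is not printed. Rab8a has CCAAT at -90 and -58, and Rab6a has it at -216 and, on the other strand, at -87. Rab11a holds CCGGAAG at 4 places (-233, -46, -16 and -13), the last 2 of them overlapping on opposite strands. Its peak runs from -70 to 48 bp, so the CCGGAAG at -233 and the CCAAT on the other strand at -188 lie outside it.

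RAB genes carried peaks in 14 of 59 cases (23.7%). Over all 21900 protein-coding genes the share with a peak within 5000 bp of the TSS was 15.9%. All 14 RAB peaks lay close to the TSS. The centre farthest from it was that of Rab2a, 467 bp downstream, so every RAB peak falls inside the 5000 bp limit and none lies beyond it. Among all protein-coding genes, 576 (2.63%) had a peak farther than 5000 bp away, and 18.1% of all 4890 peaks were that far out. No RAB gene had more than 1 peak, and 8.12% of the 3487 protein-coding genes with a nearby peak did. With so few RAB genes, nothing is read from either count of 0.

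The plot of intervals around the TSS shows how uniformly they sit. Of the 14 intervals 12 covered the TSS itself (85.7%), the exceptions being Rab2b and Rab3a, whose intervals ended upstream. The TSS here is that of the peak list. The Rab2a interval covers it but begins 16 bp past the first base that RefSeq gives for the gene. Of the 3806 peaks within 5000 bp of protein-coding genes, 62.5% covered the TSS. HOMER, the authors' annotation tool, classed 12 of the 14 as promoter peaks (85.7%, against 64.1% of those 3806), Rab18 as exon 1 of 7 and Rab2a as intron 1 of 7. Centres lay upstream of the TSS in 7 cases and downstream in 7, with a median position of 8.5 bp, against 49 bp for those 3806 peaks. All 14 centres were within 500 bp of the TSS, as were 84.2% of the 3806.

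**Figure D1:**
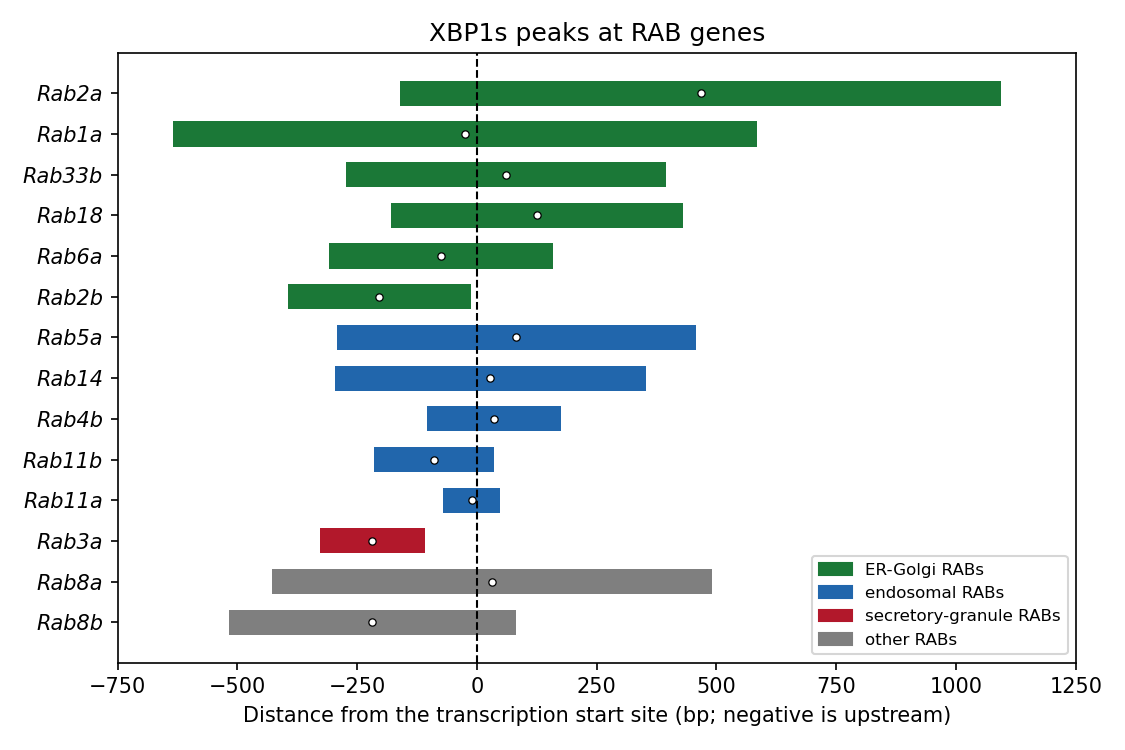
Intervals of the 14 XBP1s peaks assigned to RAB genes, drawn to scale by distance from the TSS in bp (x axis), with a white point at each centre and colours for the role of the gene. All but those of Rab2b and Rab3a cross the TSS of the peak list, and those of Rab2a (1253 bp) and Rab1a (1217 bp) are the widest.

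By role, peaks were listed for 6 of 14 ER-Golgi RAB genes (42.9%), 5 of 21 endosomal ones (23.8%), 1 of 11 secretory-granule ones (9.09%) and 2 of 13 others (15.4%). The endosomal and granule genes together had 6 of 32 (18.8%). The ER-Golgi share is thus the one that stands farthest above the 15.9% of all genes, but the groups are small, and the difference between roles was not tested. On narrower role lists the shares were 60% of 10 ER-Golgi, 33.3% of 15 endosomal and 12.5% of 8 granule genes. Those lists left out only genes without a peak, so every share had to rise. Roles were assigned from general knowledge, and several RABs work at more than one membrane. Rab41, which was also on the ER-Golgi list, has no gene in the RefSeq table.

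Rab1a, which directs vesicles from the ER to the Golgi, had a peak of 1217 bp (chr11:20200779-20201995) centred at -25 bp from the TSS and reaching over the whole promoter window. Rab2a, which acts at the ER-Golgi intermediate compartment, had the widest RAB peak, 1253 bp (chr4:8535485-8536737), and the authors' detailed annotation labels it as a CpG island. The Rab2a peak was wider than those of 95.8% of the 3487 protein-coding genes with a peak, and the Rab1a peak than those of 95.5%. Rab2b, the paralog of Rab2a, had 382 bp (chr14:52279409-52279790), centred at -204 bp, and was wider than 44.6%.

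At the Golgi itself, Rab33b, which also binds the autophagy protein ATG16L1, had a peak of 669 bp (chr3:51483693-51484361), wider than 78.2% of genes with a peak. Rab6a, which governs transport within the Golgi and back to the ER, had one of 469 bp (chr7:100607277-100607745), wider than 58.1%. The intervals of both cover their entire promoter windows.

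Rab18, found on the ER and on lipid droplets, had 610 bp (chr18:6764989-6765598), centred 126 bp downstream of the TSS and wider than 73.7%. The median width over the 6 ER-Golgi genes was 639.5 bp (range 382 to 1253), and 5 of the 6 were above 410 bp, the median of all protein-coding genes with a peak.

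Of the ER-Golgi genes, 8 had no assigned peak, namely Rab1b, Rab6b, Rab19, Rab30, Rab33a, Rab34, Rab36 and Rab43. For Rab1b, the close paralog of Rab1a, the nearest peak began 10316 bp from an end of the gene and belongs to Yif1a, itself a gene of ER-Golgi transport (857 bp). For Rab6b it was 16420 bp away, at Srprb, which encodes the beta subunit of the signal recognition particle receptor (531 bp).

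Rab30 is a special case. This Golgi gene has no peak by nearest gene, but a peak of 333 bp (chr7:92741150-92741482) lies 155 bp before the first base that RefSeq gives for it. HOMER's nearest gene there is the noncoding 4632427E13Rik, whose TSS is 143 bp from the peak centre, while HOMER's annotation column calls the same interval the promoter of a Rab30 transcript. With that peak, 7 of 14 ER-Golgi genes would have one. The same count of any peak within 1000 bp of either gene end gave 5 of 21 endosomal, 2 of 11 granule and 3 of 13 other RAB genes. Its share over all protein-coding genes was 17.5%.

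The endosomal genes with a peak fell into 2 wide and 3 narrow ones. Rab5a, the organiser of early endosome fusion, had 750 bp (chr17:53478942-53479691), wider than 83.4% of genes with a peak. Rab14, which works between Golgi and endosomes, had 648 bp (chr2:35200769-35201416), wider than 76.5%. Both cover their whole promoter windows. Rab4b, of fast recycling, had 280 bp (chr7:27178709-27178988). Of the recycling endosome pair, Rab11b had 250 bp (chr17:33760451-33760700), wider than 18.2%, and Rab11a had 118 bp (chr9:64737709-64737826), wider than 2.15%. The Rab11a peak is thus among the narrowest listed.

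The median over the 5 endosomal genes was 280 bp, and 2 of the 5 exceeded the 410 bp of all genes. The endosomal median rests on which peaks are counted. With the widest 50% of peaks it was 699 bp, from the 2 endosomal genes left, Rab5a and Rab14, and the ER-Golgi median stayed at 639.5 bp over 6 genes. With peaks of at least 200 bp the endosomal median was 464 bp. Both choices remove narrow peaks, so a higher median width follows from them. The ranges of endosomal (118 to 750 bp) and ER-Golgi widths (382 to 1253 bp) overlap. No peak was assigned to Rab7, the late endosome RAB, nor to Rab5b and Rab5c, the paralogs of Rab5a, nor to Rab4a, Rab7b, Rab9, Rab9b, Rab12, Rab15, Rab17, Rab20, Rab21, Rab22a, Rab25, Rab31 and Rab35.

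**Figure D2:**
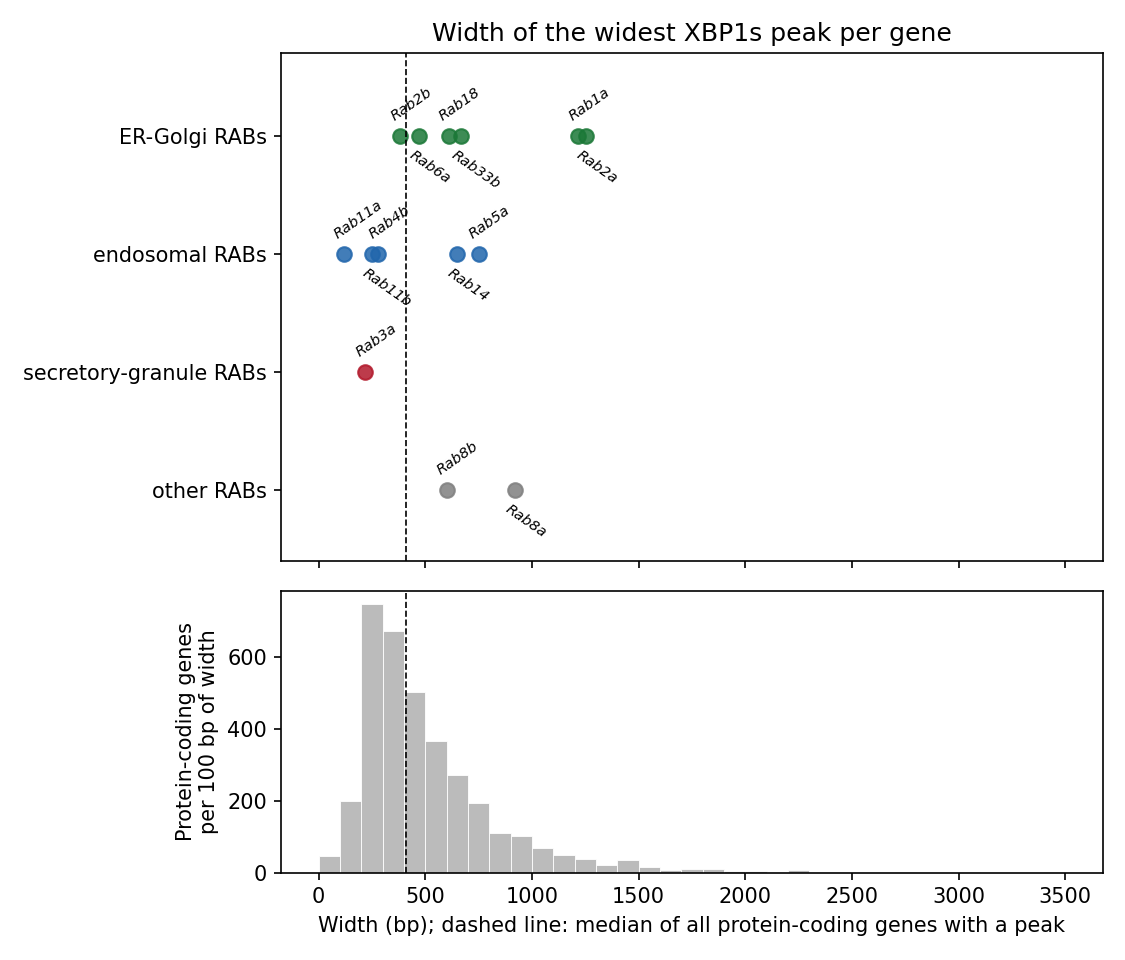
Width in bp (x axis) of the widest peak of each RAB gene by role (upper panel, 1 point per gene) and, for all 3487 protein-coding genes with a peak, the number of genes per 100 bp of width (lower panel). Rab1a and Rab2a lie in the right tail, while Rab2b, Rab3a and 3 of 5 endosomal genes lie left of the dashed median of 410 bp.

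Among secretory-granule RAB genes, a peak was assigned to Rab3a, a RAB of regulated exocytosis best known at synapses. It was narrow, 218 bp (chr8:70754353-70754570), wider than those of 11.6% of genes with a peak, and ended upstream of the TSS. The 10 without an assigned peak were Rab3b, Rab3c, Rab3d, Rab26, Rab27a, Rab27b, Rab32, Rab37, Rab38 and Rab44.

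Rab27a, the lytic granule RAB, lacked a peak at its start site, and the peak nearest to either end of the gene lay 4838 bp away at 2310009A05Rik (515 bp). Inside the gene, however, lies a peak of 469 bp (chr9:73089236-73089704), 44660 bp from its first base, which HOMER annotates to intron 5 of 5 of a Rab27a transcript. It does not count as a Rab27a peak here because HOMER's nearest TSS is that of Khdc3, from which the centre lies at -12928 bp. Rab26 had a 329 bp peak 567 bp from one of its ends, assigned to its noncoding neighbour Rab26os.

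The remaining RAB genes with a peak were Rab8a and Rab8b, paralogs that carry cargo from the trans-Golgi to the plasma membrane. Rab8a had 919 bp (chr8:72160772-72161690), the widest after Rab2a and Rab1a, centred 31 bp downstream of the TSS and wider than 89.4% of genes with a peak. Rab8b had 600 bp (chr9:66919624-66920223), centred at -218 bp. Without an assigned peak were Rab10, Rab13, Rab23, Rab24, Rab28, Rab29, Rab39, Rab39b, Rab40b, Rab40c and Rab42. The start of Rab13, a RAB of cell junctions, is nevertheless occupied, since a 305 bp peak (chr3:90213436-90213740) covers 276 of the 300 bases of its promoter window. HOMER gave that peak to Rps27rt, and its annotation column names a transcript of the ribosomal protein gene Rps27, the neighbour of Rab13. Near Rab10 a 737 bp peak was assigned to the noncoding Rab10os, 11422 bp from an end of Rab10.

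Over all roles, the median width was 605 bp for the 14 RAB genes and 410 bp for the 3487 protein-coding genes with a peak. Of the RAB genes, 9 of 14 were above that median, as 1743 of the 3487 were. Widths of at least 1000 bp were found in 2 of 14 RAB genes (14.3%), against 8.12% of all genes with a peak. With only the widest 50% of peaks counted, 10 of 59 RAB genes (16.9%) had one, against 9.03% of protein-coding genes. Counting any peak within 1000 bp of either end of a gene, whatever its assigned name, 17 of 59 RAB genes (28.8%) had one, against 17.5% of protein-coding genes. The 3 added in this way are Rab30, Rab13 and Rab26, all with peaks narrower than 410 bp. In that count the median width over RAB genes was 469 bp in place of 605 bp.

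Of the 45 RAB genes with no assigned peak, 8 had the nearest peak within 5000 bp of a gene end, 16 between that and 50000 bp, and 21 farther away. The median gap was 38193 bp and the largest, at Rab33a on the X chromosome, 2488596 bp. Paralogs differed in this respect. Rab1a, Rab3a, Rab4b, Rab5a, Rab6a and Rab33b had a peak and Rab1b, Rab3b, Rab3c, Rab3d, Rab4a, Rab5b, Rab5c, Rab6b and Rab33a did not. By contrast, Rab2a with Rab2b, Rab8a with Rab8b and Rab11a with Rab11b each had one at both. Neither member had one in the pairs Rab7 and Rab7b, Rab9 and Rab9b, Rab27a and Rab27b, Rab39 and Rab39b, and Rab40b and Rab40c.

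Some RAB peaks lay close to another gene. The Rab6a interval contains an alternative start site of Mrpl48, which encodes a mitochondrial ribosomal protein. The Rab2b interval lies 263 bp from the start site of Tox4. An end of the gene Mia lies 753 bp from the Rab4b peak, an end of the noncoding Gm17251 593 bp from that of Rab11b, and a transfer RNA gene 220 bp from that of Rab11a. No other gene end lay within 1000 bp of the remaining 9, which include Rab1a, Rab2a, Rab8a and Rab5a. Which of the genes an interval acts on was not tested.

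Promoter windows of RAB genes with a peak were rich in CpG, the dinucleotide of CpG islands. Their 13 windows (Rab3a has an additional one) held a median of 25 CpG (range 12 to 30). The 47 windows of RAB genes without a peak held 18 (range 3 to 45). Those 47 belong to 36 genes, since some, such as Rab15 and Rab43, have several start sites. Such genes count more than once here and in the motif shares below. Without a peak means here without an assigned one. In both places the 47 include a Rab13 window of which the peak assigned to Rps27rt covers 276 bases. Windows overlapped by their own peak held 24 in the median over protein-coding genes, and all 21263 windows of such genes held 13. The bound RAB promoters were thus close to bound promoters in general. Within them, Rab11b had the fewest CpG (12) and Rab5a the most (30). The part of base composition in these shares was not tested.

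**Figure D3:**
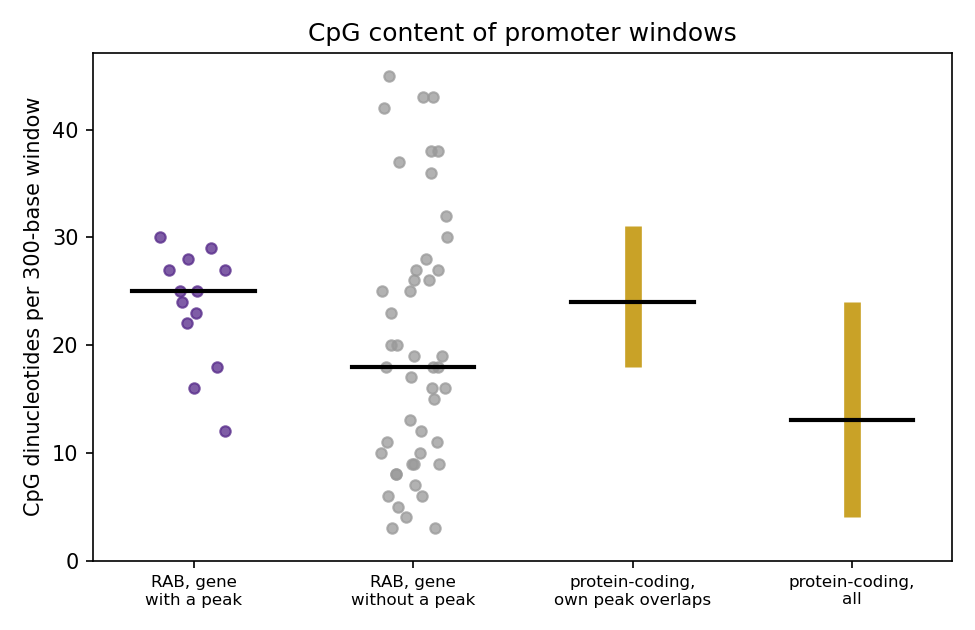
Number of CpG dinucleotides per promoter window of 300 bases (y axis) for RAB genes with and without a peak (1 point per window, line at the median), and for protein-coding genes (bar from the first to the third quartile, line at the median). The medians are 25, 18, 24 and 13 from left to right.

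The motifs were searched in each window on both strands. None of the 60 RAB windows held TGACGTGG, the unfolded protein response element, the ER stress response element (CCAAT and CCACG with 9 bases between them) or the related ERSE-II. These are rare, being found in 2.2%, 0.367% and 0.257% of the 2725 protein-coding windows overlapped by their own peak and in 0.705%, 0.141% and 0.0517% of all 21263. No match says only that these letters are not in the windows. Short pieces of them were more frequent. ACGTG, which is part of both TGACGTGG and CACGTG, was in 2 of the 12 RAB windows overlapped by their own peak (Rab33b and Rab5a, 16.7%), against 36.6% of such windows over all genes and 20.9% of all windows. It was also in 11 of the 47 windows of RAB genes without a peak (23.4%), Rab27a and Rab7 among them. CCACG, part of the ER stress elements, was in 4 of 12 (33.3%), against 58.6% and 37.4%, and in 19 of those 47 (40.4%).

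CCAAT, the box bound by NF-Y, was in 9 of the 12 RAB windows (75%), against 40.8% of windows with their own peak and 38.2% of all windows. It was present in the windows of Rab2b, Rab3a, Rab4b, Rab5a, Rab6a, Rab8a, Rab8b, Rab11a and Rab11b, and absent from those of Rab1a, Rab14 and Rab33b. In RAB windows of genes without a peak it was in 17 of 47 (36.2%). Windows reach past some peaks. The only CCAAT of Rab11a, at -188, lies outside its interval. Rab4b has CCAAT at -160, -109 and -67, and its interval begins at -105. Of these, the match at -160 lies outside the interval, that at -109 crosses its edge and that at -67 lies inside. CCGGAAG was in 3 of the 12 (Rab8a, Rab11a and Rab14, 25%), against 29.7% and 11.6%, and in 2 of the 47 RAB windows of genes without a peak (4.26%). GGGCGG, the GC box, was in 9 of the 12 (75%), against 70.3% and 46.2%, and in 32 of the 47 (68.1%). TGACGTCA was in 1 (Rab5a, 8.33%), against 5.61% and 2.23%, and in 1 of the 47 (Rab25, 2.13%). CACGTG was also in 1 (Rab5a, 8.33%), against 14.3% and 7.84%, and in 5 of the 47 (10.6%). GCCACGT, which overlaps ACGTG on the other strand, was also in the Rab5a window (8.33%), against 8.11% and 2.91%, and in 2 of the 47 (4.26%). A match is a string of letters and not a bound site, and letters outside the window were not read.

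The genes that load, switch and read RABs were examined by the same count. Of 10 genes of RAB membrane cycling, 7 had a peak within 5000 bp (70%, median 494 bp). The widest were Rabif, which encodes a chaperone of nucleotide-free RABs (1086 bp), Yif1a (857 bp) and Yipf5 (540 bp). Both subunits of the geranylgeranyl transferase that lipidates RABs had narrow peaks, Rabggta 213 bp and Rabggtb 201 bp. Gdi2, which extracts RABs from membranes, had 374 bp. The escort genes Chm and Chml had none.

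Exchange factors had a peak in 18 of 45 cases (40%, median 365.5 bp), led by Dennd4b (1349 bp), Dennd2d (971 bp) and Trappc4 (834 bp). TRAPP, the exchange complex for RAB1, had 5 of its 14 listed subunits with a peak. Rab3gap1 (293 bp) and Rab3gap2 (427 bp), which together form the exchange factor of RAB18, both had one. GTPase-activating proteins of the TBC family and their relatives had a peak in 7 of 37 cases (18.9%, median 325 bp), near the 15.9% of all genes. Their widest were Tbc1d10a (687 bp), Tbc1d15 (622 bp) and Tbc1d20, an activator of RAB1 hydrolysis (609 bp).

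Of RAB effectors at the ER and Golgi, 7 of 13 had a peak (53.8%, median 780 bp), among them the tether gene Uso1, whose product p115 binds RAB1 (1090 bp), the Golgi stacking gene Gorasp2 (981 bp), the golgin genes Golga1 (829 bp) and Golga2 (780 bp), and Golga4 (606 bp). At endosomes 4 of 21 did (19%, median 272 bp), the widest being Rbsn (443 bp), Rilpl2 (310 bp) and Rabep2 (234 bp), and none was assigned to Eea1, the tether recruited by RAB5. At granules 2 of 14 did (14.3%, median 272 bp), which like the endosomal share is near the 15.9% of all genes, namely Unc13d, which encodes the RAB27A partner Munc13-4 needed for lytic granule release (316 bp, centred at -287 bp), and the motor gene Myo5a (228 bp). The differences between these lists were not tested.

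**Figure D4:**
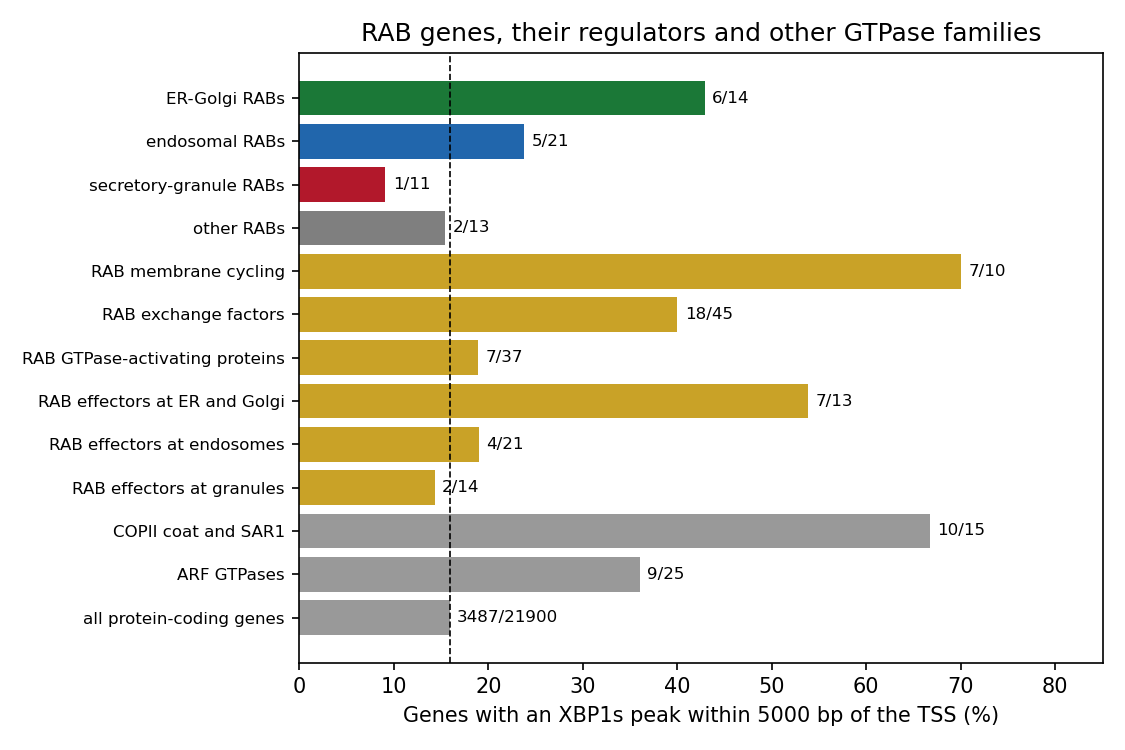
Percentage of genes with an XBP1s peak within 5000 bp of the TSS (x axis) for RAB genes by role, their regulators and effectors, and other gene families, with counts beside the bars and a dashed line at 15.9%, the share of all protein-coding genes. ER-Golgi RABs (42.9%) and ER-Golgi effectors (53.8%) have longer bars than their endosomal (23.8% and 19%) and granule (9.09% and 14.3%) counterparts.

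Set beside other GTPase families, the ER-Golgi RABs (6 of 14, 42.9%) had a lower share than the COPII coat with its GTPase SAR1, which buds vesicles from the ER (10 of 15, 66.7%, median 754 bp). Its widest peaks were at Sec24c (2011 bp), Sec24d (1540 bp) and Sec31a (1208 bp). The 59 RAB genes as a whole (23.7%, median 605 bp) had a lower share than 25 ARF GTPases, regulators of Golgi coats (9, 36%, median 584 bp). The widest ARF peaks were at Arf4 (1371 bp), Arf1 (1132 bp) and Arfrp1 (773 bp). Neither difference was tested.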

How the data were processed

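XBP1s occupancy was measured by ChIP-seq in 2 immunoprecipitated and 2 input libraries, with paired-end reads of 100 bp per the labels' protocols. The authors deposited 1 peak list. Per the file headers it was annotated with HOMER on build mm10 from 1 combined set of intervals. Tools listed in the notes of the submitters were Bowtie2 2.4.5, Trim Galore 0.6.7, MACS2 2.2.7.1, FastQC 0.11.9 and 2 versions of HOMER (4.11 and 4.11.1). How libraries were combined was not given in the sources used here. Every score that the authors deposited is 0.

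Width was end minus start plus 1. A gene had a peak when HOMER named it for a centre within 5000 bp of the TSS, and its widest peak was used. Gene IDs of 4885 of 4888 peaks with one were found in RefSeq GRCm38.p6. The motif search found every motif planted in random sequences of A and T only, and false matches were not checked. The rule of the widest peak was checked on simulated widths in a separate copy of that step. Every RAB gene is named. From each other list the 3 widest are named, and further genes were chosen after their values were seen. Members and lists were chosen with earlier results of these data known. 1 further gene family and 1 listed gene are not reported here. Proteins were not used here. Python 3.11.15, pandas 2.3.3, NumPy 2.4.6 and matplotlib 3.10.9 were used.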

Additional observations from a re-analysis of the deposited data

How the results depend on the processing

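Counts and median widths were recomputed with a window of 1000 bp, peaks at any distance, the widest 50% of peaks, peaks of at least 200 bp, any peak at either gene end, and narrower role lists. The narrower lists left out only genes without a peak, so their counts and medians could not change. Nor could those of the 1000 bp window and of peaks at any distance, since all 14 centres lay within 500 bp of the TSS. The 50 recomputed values include these fixed ones, so the tally that follows is not a measure of stability. Of the 50, 46 stayed within 1.5 times the main count or within the 95% order-statistic interval of the median (the range, with few genes). With few genes that range is wide, and the endosomal median of 280 bp became 699 bp with the widest 50% of peaks and 464 bp with peaks of at least 200 bp within it. The 699 bp exceeds the ER-Golgi median of 639.5 bp, but it rests on 2 endosomal genes. Both choices remove narrow peaks, so a higher median width follows from them and the comparison of medians is not settled by it. With the widest 50% of peaks, endosomal RAB genes with a peak numbered 2 in place of 5 and secretory-granule ones 0 in place of 1. With either gene end, secretory-granule ones numbered 2 and their median width was 273.5 bp in place of 218 bp, because Rab26 was added. That setting lowered the median over all RAB genes from 605 to 469 bp and the ER-Golgi median from 639.5 to 610 bp. The main ER-Golgi count was 6 and ranged from 6 to 7. No replicate could be left out, and no paired analysis was possible because no column of the list belongs to 1 library. The depth is unknown, so a gene without a peak is not shown to be unbound.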
